A study of Mus musculus with 4 samples.

Results

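The genes described here encode 40 lysosomal proteins and their regulators, chosen by name from the lysosomal hydrolases, lysosomal membrane proteins and proton pump subunits, together with Tfeb, Tfe3 and Rragd. All 40 were on the array, among 18193 genes in all. A gene's value is that of its brightest probe set on average, and 26 of the 40 had more than 1 probe set. Cultures of the mouse melanocyte line melan-a were measured, with 1 array for each of 4 conditions. They were Hmhi-MYC-TA cells with EGF, cells labelled Hmhi-Miz1 kd (Hmhi-pS-Miz1 in the longer label) with EGF, Hmhi cells with EGF, and Hmhi cells starved without EGF. All 4 were kept for 14 days in medium with 10% dialyzed serum, EGF was given at 100 ng/ml, and the growth medium before that held 10% serum, 200 nM TPA and 12 nM cholera toxin. The labels spell out neither Hmhi nor MYC-TA, and they do not say whether a line is a single clone.

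Lysosomes are acidic compartments in which proteases, glycosidases, lipases and sulfatases break down material from endocytosis and autophagy. A vacuolar proton pump, the V-ATPase, acidifies them. TFEB, TFE3 and the melanocyte factor MITF belong to a single family of transcription factors that bind E-box sequences in the promoters of many lysosomal genes, and their activity is set largely by phosphorylation and location in the cell. In melanocytes the same machinery also serves the melanosome, a lysosome-related organelle. Beta-galactosidase, the product of Glb1, is the enzyme behind the common senescence stain, and senescence is named in the series title.

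The E-box is printed first because it is the sequence these genes are known for. RefSeq promoter windows (build GRCm38.p6, 250 bases before to 50 bases from each annotated start) were held for 35 of the 40 genes. The letters CACGTG were in a window of 14 of the 35, against 8.09% of the 27025 genes with windows in that table. The longer TCACGTGA, which contains the shorter motif, was in 6 of the 35 (17.1%), against 1.12% of all genes. Both motifs read the same on either strand, so a search of 1 strand covers both. The stretches below hold the 6 genes with the longer motif, Lamp1 with the most copies, and 3 sugar-chain hydrolases that were at least 2-fold higher with EGF. Gaa, another such hydrolase at least 2-fold higher with EGF, had CACGTG at -140 and is not printed. The printed stretches run 5′ to 3′ along the gene, with CACGTG in capitals.
Ctsa (chr2:164833739-164833805, plus strand): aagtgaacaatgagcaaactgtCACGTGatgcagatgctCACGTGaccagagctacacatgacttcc
Ctsd (chr7:142387898-142387947, minus strand): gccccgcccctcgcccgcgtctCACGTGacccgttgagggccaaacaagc
Gla (chrX:134601172-134601254, minus strand): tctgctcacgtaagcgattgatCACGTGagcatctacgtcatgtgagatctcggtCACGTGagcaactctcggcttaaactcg
Mcoln1 (chr8:3500426-3500501, plus strand): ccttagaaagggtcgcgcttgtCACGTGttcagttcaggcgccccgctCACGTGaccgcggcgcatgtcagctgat
Atp6v0d1 (chr8:105566040-105566089, minus strand): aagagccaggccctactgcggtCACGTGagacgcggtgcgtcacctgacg
Atp6v1a (chr16:44139363-44139412, minus strand): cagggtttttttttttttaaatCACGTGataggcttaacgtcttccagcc
Lamp1 (chr8:13159078-13159173, plus strand): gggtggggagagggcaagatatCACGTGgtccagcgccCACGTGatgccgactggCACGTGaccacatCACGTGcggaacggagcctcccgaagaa
Glb1 (chr9:114401008-114401057, plus strand): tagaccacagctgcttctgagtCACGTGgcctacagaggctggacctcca
Naglu (chr11:101069999-101070048, plus strand): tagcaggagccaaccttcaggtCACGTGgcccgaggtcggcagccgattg
Sgsh (chr11:119355512-119355561, minus strand): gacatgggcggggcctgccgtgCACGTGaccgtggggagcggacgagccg

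The 14 genes held 21 copies of CACGTG, and 17 of these began within 150 bases of the start site. Lamp1, which encodes an abundant glycoprotein of the lysosomal membrane, had 4 copies between 61 and 15 bases before its start, at -61, -45, -28 and -15. Ctsa had copies of the longer motif at -12 and at 6, on both sides of the start, and Atp6v0d1 had one at -3. The same 6 letters are also a known binding sequence of MYC with its partner MAX. A match in a promoter is a string of letters and was not measured as binding in these cells.

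**Figure D1:**
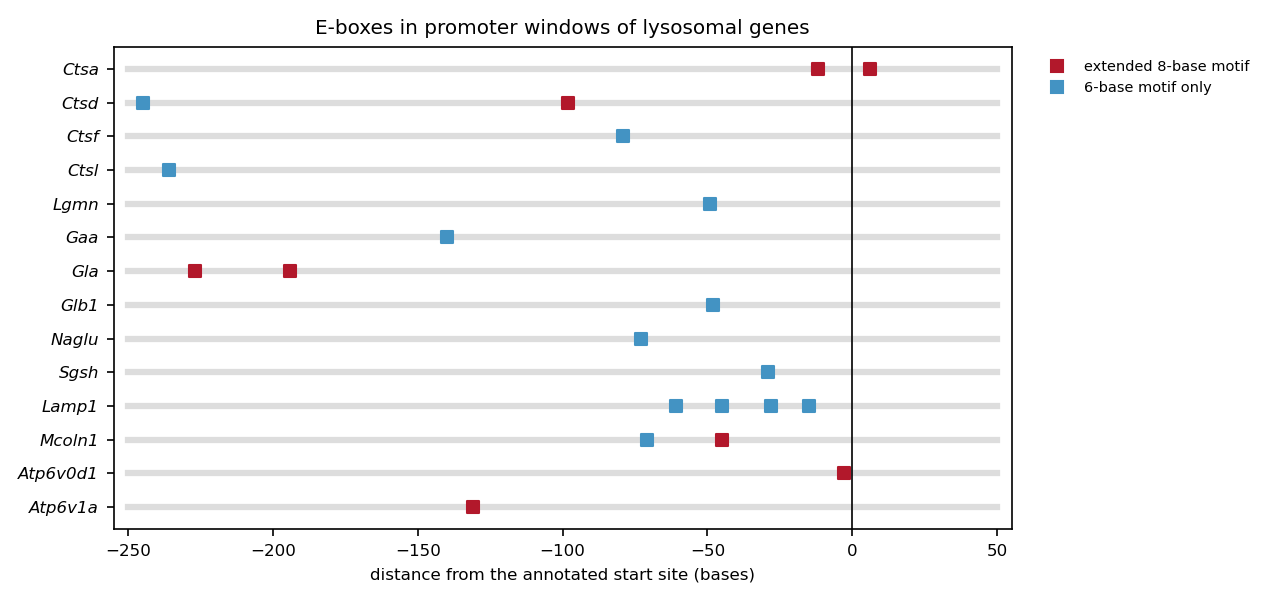
Positions of CACGTG in the promoter windows of the 14 lysosomal genes that held it, as the distance of the motif's first base from the annotated start site in bases. Red squares are copies within TCACGTGA and blue squares are other copies; 17 of 21 copies lie within 150 bases of the start.

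Levels are log2 signals in the deposited values, taken as log2 from their range, and the median of all probe sets was 6.66 on each array. A level is compared only between arrays for the same gene, since probe sets differ in brightness. Equal distributions were imposed on the 4 arrays before deposit, so a shift of all genes together cannot be seen. With 1 array per condition, each difference sets a pair of arrays side by side and no test of the conditions was possible. The only error that could be computed was technical. It is the SD of the log2 differences among probe sets for the same gene. It was 0.32 for Hmhi with EGF against starved Hmhi, 0.22 and 0.25 for the array labelled Miz1 kd and for MYC-TA against Hmhi with EGF, and 0.41 for MYC-TA against the array labelled Miz1 kd. In bulk cultures, fewer cells of a type and less RNA per cell cannot be told apart. A gene entered a comparison when the brighter of its 2 values reached the median of the non-control probe sets, 6.66, and a gene counted as apart at a difference of 2-fold, which is 1.0 on the log2 scale.

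Zbtb17 encodes Miz-1, and its signal in the array labelled Miz1 kd was above that in Hmhi with EGF on both of its probe sets, by 0.35 and 0.22. The brighter set read 8.71 in MYC-TA with EGF, 9.08 in the array labelled Miz1 kd, 8.72 in Hmhi with EGF and 8.73 in starved Hmhi, while the dimmer set read 6.78 in MYC-TA, 6.72 in the array labelled Miz1 kd and below the array median in both Hmhi arrays. Every direction given for that array is that of the array as labelled. Myc read 9.78 in MYC-TA with EGF, 10.79 in the array labelled Miz1 kd, 10.60 in Hmhi with EGF and 10.64 in starved Hmhi. Of 12 melanocyte markers, 9 to 10 were at or above the array median on each array, among them Sox10 at 12.96 to 13.36. Tyr and Ednrb were below the median on all 4 arrays. Of 12 macrophage and osteoclast markers, 2 or 3 were at or above it on each array, and the defining genes Ptprc, Adgre1 and Itgam were below it on all 4. Lyz2, the lysozyme of macrophages, was well above it on all 4, at 10.74 to 12.37. Csf1r, the receptor for a macrophage growth factor, read 6.73, 6.87 and 6.74 in the 3 EGF arrays, near the median, and 9.41 in starved Hmhi. Of 10 fibroblast markers 4 or 5 were at or above it, and of 7 keratinocyte markers measured 2 were. Some fibroblast markers differed between arrays in either direction. In MYC-TA, the array labelled Miz1 kd, Hmhi with EGF and starved Hmhi, Pdgfrb read 6.91, 11.16, 10.18 and 10.45. In the same order Dcn read 11.56, 9.45, 10.345 and 11.50, Col3a1 9.69, 6.25, 7.21 and 6.59, and Postn 10.03, 8.85, 10.15 and 7.91. Col1a1, Lum, Thy1 and Fap were below the median on all 4 arrays. The linear signals of the 12 melanocyte markers, of which Tyrp1 was the brightest, summed to 22862 in MYC-TA, 32238 in the array labelled Miz1 kd, 27823 in Hmhi with EGF and 37906 in starved Hmhi. Gene by gene, 10 of them passed the level filter. With EGF 4 were at least 2-fold higher than in starved cells, Slc45a2, Pmel, Dct and Oca2 at 1.62, 1.51, 1.48 and 1.07. Tyrp1 alone was at least 2-fold lower, at -1.02. Over all genes, 7.98% were at least 2-fold higher and 4.96% lower. Of the other markers, Kit was at 0.92, Sox10 at -0.01, Gpr143 at -0.53, Mlana at -0.83 and Mitf at -0.90. The list median was 0.45. So the sum and the list median ran in opposite directions. The macrophage and osteoclast sums, in which Lyz2 was the brightest, were 2236, 4290, 5795 and 4758 in the same array order. The part of these markers in the lysosomal values was not tested.

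Across the 4 arrays, 29 of the 40 genes had their lowest level in starved Hmhi cells. The highest level was in MYC-TA for 9 genes, in the array labelled Miz1 kd for 8, in Hmhi with EGF for 19 and in starved Hmhi for 4. At or above the array median on every array stood 36 genes. Ctsh and Ctss, cathepsins of antigen-presenting and other cells, were below it on all 4 arrays, with Ctsh at 5.51 to 5.70 and Ctss at 4.26 to 4.74. Neither entered a comparison. Ctsk, the collagen-degrading cathepsin of osteoclasts, read 6.82, 6.77, 6.68 and 6.51 in MYC-TA, the array labelled Miz1 kd, Hmhi with EGF and starved Hmhi, all close to the array median. Ctsk and Rragd passed the level filter in the EGF comparison only through their level in Hmhi with EGF.

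Within each role, the genes with the widest and the narrowest range over the arrays are given next, in MYC-TA, the array labelled Miz1 kd, Hmhi with EGF and starved Hmhi. Among proteases, Ctsf read 10.41, 9.05, 9.91 and 8.98, and Ctsh read 5.70, 5.65, 5.51 and 5.59. Among sugar-chain hydrolases, Gaa read 11.54, 12.58, 12.23 and 11.12, and Gla read 10.14, 9.96, 10.19 and 9.62. So Ctsf was highest in MYC-TA, whereas Gaa was highest in the array labelled Miz1 kd. Among lipid genes, Npc1 read 10.66, 11.82, 11.54 and 10.25, and Ppt1 read 10.54, 10.46, 10.79 and 10.70. Among membrane proteins, Lamp2 read 13.61, 13.79, 13.86 and 13.28, and Scarb2 read 13.55, 13.59, 13.77 and 13.51. The membrane proteins thus had narrow ranges. Atp6v1a read 11.90, 11.26, 11.71 and 11.80 and Atp6v1h 10.47, 10.44, 10.45 and 10.88. Rragd read 8.95, 5.75, 7.92 and 5.01, and Tfeb 8.38, 8.36, 8.32 and 8.47.

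**Figure D2:**
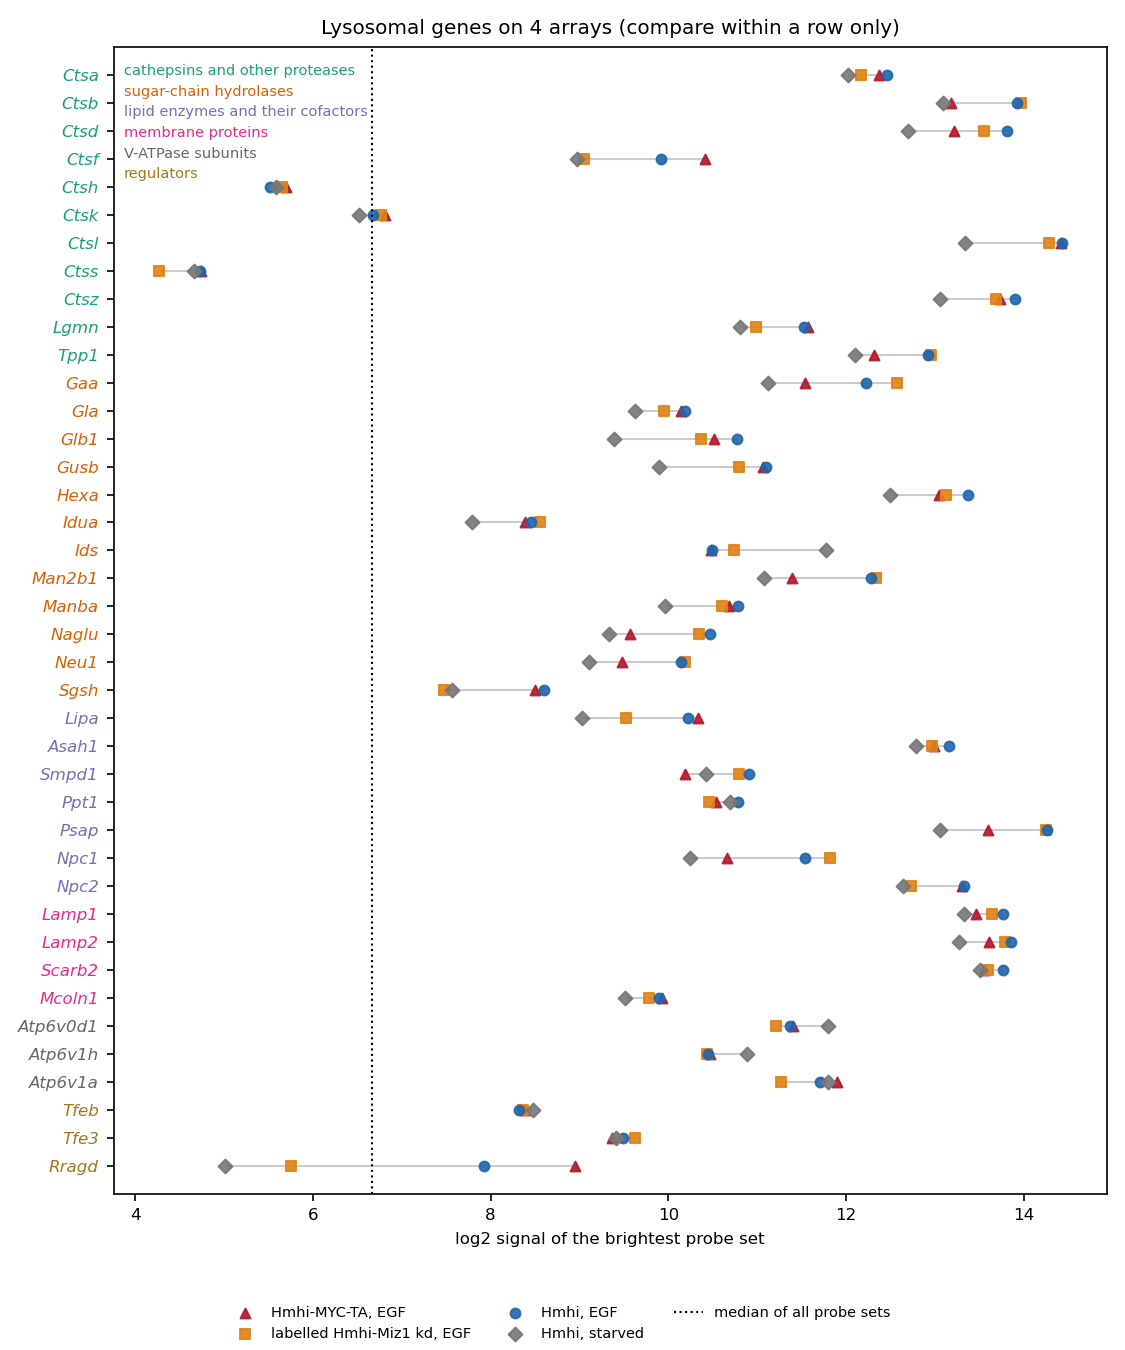
Level of each of the 40 genes on each array, as the log2 signal of its brightest probe set (x axis), with genes in rows coloured by role and the array median of 6.66 as a dotted line. In 29 rows the grey diamond of starved Hmhi cells is the lowest point, while Ids, Tfeb, Atp6v0d1 and Atp6v1h have it as the highest.

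Hmhi cells with EGF were set against starved Hmhi cells to ask what differed after 14 days of EGF. Most lysosomal hydrolases were higher with EGF, by up to 2.62-fold, while the proton pump subunits and the transcripts of Tfeb and Tfe3 were not. Of 38 genes past the level filter, 13 (34.2%) were at least 2-fold higher, against 7.98% of all 11461 genes. A single gene, Ids, was at least 2-fold lower (2.63%), against 4.96% of all genes. The median difference of the 38 was 0.77, against 0.01 for all genes, and 33 of the 38 were above 0. At a threshold of 1.5-fold, added after the values were seen, 22 were higher and 1 lower, against 16.7% and 13.3% of all genes.

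Among the cathepsins and other proteases, all 9 genes that entered were higher with EGF, with a median of 0.84. Ctsd, the aspartic protease cathepsin D, read 13.81 with EGF and 12.70 in starved cells, a difference of 1.11. Ctsl, a cysteine protease and the brightest signal of the group on its own probe set, read 14.43 and 13.35, and both of its probe sets gave nearly the same difference, at 1.09 and 1.08. These were the 2 proteases past the threshold. Just short of it were Ctsf at 0.94, Ctsb and Ctsz at 0.84 each and Tpp1, the tripeptidyl peptidase lacking in a form of Batten disease, at 0.82. Ctsb, cathepsin B, was higher on all 5 of its probe sets, by 0.40 to 1.01. Lgmn, the asparaginyl endopeptidase that processes other cathepsins, was higher by 0.72 and Ctsa, which protects beta-galactosidase and neuraminidase in a complex, by 0.44.

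The enzymes that take sugars off glycoproteins, glycolipids and glycosaminoglycans showed the most members past the threshold, 7 of 12, with a median of 1.04. Glb1 read 10.78 with EGF and 9.39 in starved cells, a difference of 1.39 or 2.62-fold on its single probe set. Gusb, beta-glucuronidase, read 11.11 and 9.90, although its dimmer probe set differed by 0.22. Man2b1, an alpha-mannosidase, read 12.29 and 11.08, with 0.55 on its dimmer set.

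Gaa, the acid alpha-glucosidase that degrades glycogen, was higher by 1.11 and by 1.25 on its 2 probe sets. Naglu and Sgsh, which act in turn on heparan sulfate, were higher by 1.13 and 1.04, and Neu1, a sialidase, by 1.04 with 0.59 on its next set. Hexa, Manba, Idua and Gla, each the gene of a lysosomal storage disease, were higher by 0.87, 0.82, 0.67 and 0.57. The remaining sugar-chain enzyme ran the other way. Ids, the iduronate sulfatase of heparan and dermatan sulfate breakdown, read 10.49 with EGF and 11.78 in starved cells, a difference of -1.28. Its next probe set gave -1.46, and its other 4 sets were below the array median. It was also low in the other EGF arrays, at 10.49 in MYC-TA and 10.74 in the array labelled Miz1 kd.

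Of the 7 genes of lipid breakdown, 3 were at least 2-fold higher with EGF and none lower, with a median of 0.69. Npc1, the membrane protein that exports cholesterol, read 11.54 with EGF and 10.25 in starved cells, 2.44-fold apart. Psap, the precursor of the saposin cofactors, read 14.27 and 13.06, and its other probe set differed by 1.41. Lipa, the acid lipase that frees cholesterol from its esters, was higher by 1.19, 0.78 and 0.45 on its 3 sets. Npc2, the soluble partner of Npc1, was higher by 0.69, Smpd1, acid sphingomyelinase, by 0.48 and Asah1, acid ceramidase, by 0.37. Ppt1, a palmitoyl-protein thioesterase, differed by 0.09, less than the technical SD.

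The 4 membrane proteins were all higher with EGF, by less than 1.5-fold on their brightest probe sets, with a median of 0.41. Lamp2 read 13.86 with EGF and 13.28 in starved cells, Lamp1 read 13.77 and 13.33, Mcoln1, a lysosomal calcium channel, read 9.90 and 9.52, and Scarb2, the receptor that carries glucocerebrosidase, read 13.77 and 13.51. The dimmer 2 of the 4 Lamp2 probe sets differed by 0.10 and 0.09, and the dimmer Scarb2 set by 0.63. The 3 V-ATPase subunits were all below 0, with Atp6v1h and Atp6v0d1 at -0.43 and Atp6v1a, the catalytic subunit, at -0.09.

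Tfeb read 8.32 with EGF and 8.47 in starved cells, and Tfe3 read 9.48 and 9.41, both differences within the technical SD of 0.32. Rragd was an exception among the regulators. It encodes RagD, a small GTPase of nutrient sensing at the lysosome and a known target of the MITF and TFEB family. It read 7.92 with EGF and 5.01 in starved cells, a difference of 2.91. At that starved level, under the median of the array, background can compress a fold, and its other 2 probe sets were below the median on all 4 arrays. Without Rragd, 12 of 37 members were at least 2-fold higher and the median was 0.72.

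**Figure D3:**
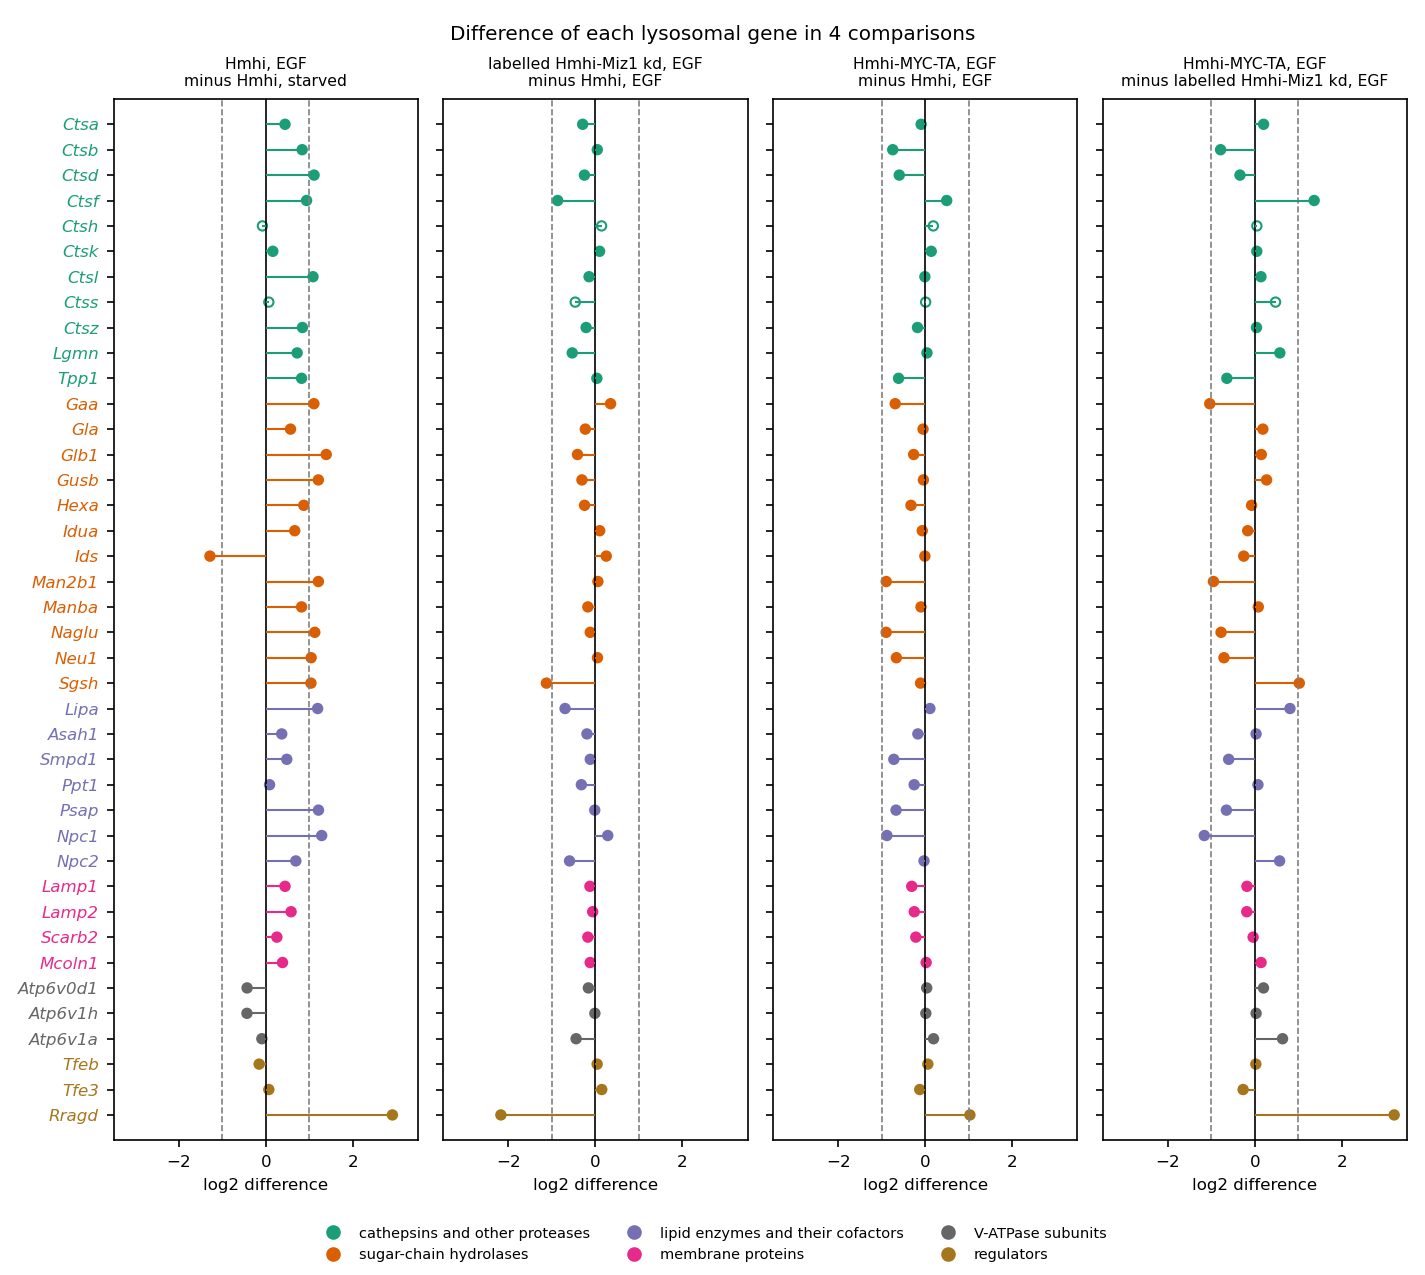
Log2 difference of each of the 40 genes in the 4 comparisons, 1 panel each, with lines at 0 and dashed lines at 2-fold; open circles are genes that did not pass the level filter. In the first panel 33 of 38 points lie above 0, and in the third panel the largest negative values are near -0.90.

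Genes with and without CACGTG had similar medians in this comparison, and the genes with the longer motif had a lower one. Over all genes, 7.98% were at least 2-fold higher. The 14 genes with CACGTG had a median of 0.83 with EGF, and 6 of them were at least 2-fold higher. The 20 genes past the filter whose windows lacked it had a median of 0.76, with 6 at least 2-fold higher. For the 6 genes with the longer motif the median was 0.41, with 1 past the threshold, Ctsd. This group holds Atp6v0d1 at -0.43 and Atp6v1a at -0.09, the latter within the technical SD of 0.32. Its other genes were Ctsa at 0.44, Ctsd at 1.11, Mcoln1 at 0.385 and Gla at 0.57. These medians describe single arrays and were not tested.

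The array labelled Miz1 kd was set against Hmhi with EGF to ask what the knockdown construct went with under EGF. Lysosomal genes differed little, apart from Rragd, Sgsh, Ctsf, Lipa and Npc2, which were lower. Of 38 genes, 2 (5.26%) were at least 2-fold lower, against 2.5% of 11394 genes, and 0 were at least 2-fold higher, against 0.29%. At 1.5-fold, 5 (13.2%) were lower and 0 higher, against 6.99% and 2.15% of all genes. The median difference was -0.16, against 0.02 for all genes, with 27 of 38 below 0.

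Rragd was at 5.75 in the array labelled Miz1 kd, against 7.92 in Hmhi with EGF, a difference of -2.17 that background limits at the low end. The lower value was under the array median, so Rragd passed the filter only through Hmhi with EGF. Without it, 1 of 37 genes was at least 2-fold lower, against 2.5% of all genes. Sgsh, heparan N-sulfatase, read 7.47 and 8.60, a difference of -1.13, and its other probe set was below the array median. Both genes had their higher level under the 75th percentile of the array, so a stricter filter left no gene past 2-fold. Ctsf, a cysteine cathepsin, read 9.05 and 9.91.

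Lipa was lower on all 3 of its probe sets, by -0.70, -1.04 and -0.64. Npc2 was lower by -0.60, -0.68 and -0.63 on its 3 brightest sets. Lgmn, at -0.53, and Atp6v1a, at -0.45 and -0.57 on its 2 sets, came next. On the other side, Gaa was higher by 0.35 and 0.37 on its 2 sets, Npc1 by 0.28 and Ids by 0.25. Psap, Ctsb, Tpp1, Man2b1 and Neu1 differed by 0.06 or less in either direction on their brightest sets. The other sets of Ctsb were higher by 0.18 to 0.62, that of Man2b1 by 0.45 and that of Psap by 0.07. The next sets of Tpp1 and Neu1 were at -0.26 and -0.27. Of 20 genes with more than 1 probe set past the filter, 12 had all sets on the same side of 0.

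Tfeb was at 8.36 in the array labelled Miz1 kd, against 8.32 in Hmhi with EGF, and Tfe3 read 9.63 and 9.48. Both differences were smaller than the technical SD of 0.22. On their brightest sets, Lamp1, Lamp2, Scarb2 and Mcoln1 were between -0.17 and -0.06. The second Lamp2 set was at 0.005, but its dimmest sets were at -0.50 and -0.54. The dimmest Mcoln1 set was at 0.18.

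MYC-TA with EGF was set against Hmhi with EGF to ask what went with MYC-TA under EGF. A set of 10 lysosomal genes was lower, between -0.90 and -0.59, and most others stayed within 0.35 of their level in Hmhi with EGF. The 10 were Naglu, Man2b1, Npc1, Ctsb, Smpd1, Gaa, Psap, Neu1, Tpp1 and Ctsd. At 2-fold only Rragd passed on the higher side (2.63% of 38 genes), against 1.3% of 11534 genes, and 0 passed on the lower side, against 1.65%. At 1.5-fold, 10 (26.3%) were lower and 1 higher, against 7.03% and 7.3% of all genes. The median was -0.11, against 0.04 for all genes, with 28 of 38 below 0.

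Naglu read 9.57 in MYC-TA and 10.46 in Hmhi with EGF, and Npc1 read 10.66 and 11.54, each on its single probe set. Man2b1 read 11.39 and 12.29, a difference of -0.90 on its brighter set and -0.68 on the dimmer one. Ctsb read 13.18 and 13.93, and its 5 probe sets ranged from -1.03 to -0.63. So the brightest set of Ctsb, at -0.74, was not its lowest.

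Psap read 13.60 in MYC-TA and 14.27 in Hmhi with EGF, with -0.67 and -0.78 on its 2 sets. Gaa gave -0.69 and -0.75, Smpd1 -0.72 and -0.58, Tpp1 -0.61 and -0.51, and Neu1 -0.66 and -0.61 on the 2 sets past the filter. Ctsd, on its single set, was at -0.59.

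On their brightest sets, the hydrolases that did not follow included Ctsl at -0.01, Gusb at -0.04, Lgmn at 0.04 and Npc2 at -0.03. Gla was at -0.05, Ctsa at -0.09, Manba at -0.10 and Sgsh at -0.11. A dimmer set was higher in MYC-TA for Ctsl, Npc2 and Ctsa, by 0.71, 0.78 and 0.40. The next sets of Gusb, Gla and Npc2 gave -0.08, -0.03 and -0.025. Lipa was higher by 0.11 and Ctsf by 0.50. The membrane proteins Lamp1, Lamp2 and Scarb2 were at -0.31, -0.25 and -0.21, with -0.65 on the dimmer Scarb2 set, and Mcoln1 was at 0.02 on its brightest set but -0.63 on its dimmest. V-ATPase subunits were between 0.02 and 0.19 on their brightest sets, with -0.71 on the next set of Atp6v1h. Tfeb differed by 0.06 and Tfe3 by -0.12, less than the technical SD of 0.25.

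Rragd read 8.95 in MYC-TA and 7.92 in Hmhi with EGF, a difference of 1.03 at the threshold. A loess correction brought it just under the threshold. Rragd had the widest range of the members over the 4 arrays, 3.94, with its highest level in MYC-TA and its lowest in starved Hmhi cells. The narrowest range was that of Tfeb, 0.15. Of the 10 melanocyte markers past the filter in this comparison, 0 were at least 2-fold higher and 2 lower, Oca2 at -3.16 and Slc45a2 at -2.70, with a list median of -0.41. Oca2 read 6.205 in MYC-TA, below the array median, so it passed the filter only through Hmhi with EGF. Gpr143 was at -0.78, Mlana at -0.63, Pmel at -0.56 and Mitf at -0.26. Sox10 was at -0.25, Dct at -0.19, Tyrp1 at -0.02 and Kit at 0.49.

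MYC-TA was also set against the array labelled Miz1 kd. Past 2-fold stood 3 of 38 genes (7.89%) on the higher side and 2 (5.26%) on the lower side, close to the 6.72% and 4.26% of 11613 genes. The median was 0.03, against 0.04 for all genes. At 1.5-fold, 5 (13.2%) were higher and 9 (23.7%) lower, against 17.0% and 12.4%. The members thus ran both ways with no common shift.

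Rragd read 8.95 in MYC-TA and 5.75 in the array labelled Miz1 kd, a difference of 3.21. The lower value was under the array median, so Rragd passed the filter only through MYC-TA and the size of the difference is uncertain. Without it, 2 of 37 genes were at least 2-fold higher. Ctsf read 10.41 and 9.05, a difference of 1.37, and Sgsh read 8.49 and 7.47. Lipa was higher by 0.81 on its brightest set and by 1.35 on another. Atp6v1a was higher by 0.64 and 0.65 on its 2 sets. Atp6v1h was at 0.03 on its brightest set but -1.26 on the next.

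On the lower side, Npc1 read 10.66 in MYC-TA and 11.82 in the array labelled Miz1 kd, a difference of -1.16. Gaa read 11.54 and 12.58, and its other set gave -1.11. Man2b1 at -0.95, Ctsb at -0.79, Naglu at -0.78 and Neu1 at -0.71 came next. Ctsb was at -1.19 and -1.21 on its next brightest sets, so the choice of probe set put it on either side of 2-fold. The technical SD was widest in this comparison, 0.41.

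**Figure D4:**
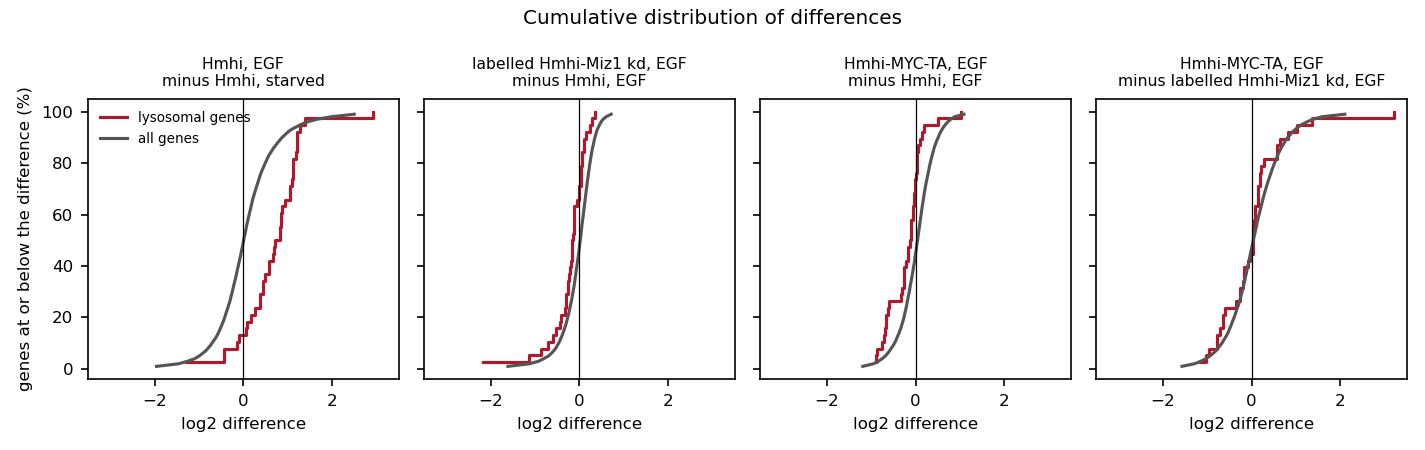
Cumulative share of genes in percent (y axis) at or below each log2 difference (x axis) for the lysosomal genes past the level filter (red) and all genes past it (grey), 1 panel per comparison. The red curve lies to the right in the first panel, with a median of 0.77 against 0.01, and close to the grey curve in the last, with 0.03 against 0.04.

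Other genes of the pathway were taken from 7 lists that did not include the 40. These lists too were chosen with earlier results of these data known. Their counts with EGF stand against the 7.98% of all genes that were at least 2-fold higher and the 4.96% that were at least 2-fold lower. Of 27 other hydrolases and cofactors past the filter, 5 were at least 2-fold higher with EGF than in starved cells and 0 lower, with a median of 0.68. Smpdl3a, a relative of acid sphingomyelinase, was higher by 1.30, Hgsnat, which acetylates heparan sulfate for breakdown, by 1.27, and Arsb, a sulfatase, by 1.11. Smpdl3b read 7.43 with EGF and 6.33 in starved cells, the last value below the array median.

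Of 28 other membrane proteins, 5 were higher and 0 lower, with a median of 0.28. Mfsd12, a transporter of lysosomes and melanosomes, was higher by 1.80, Mcoln3, a relative of Mcoln1, by 1.66 and Laptm4b by 1.07. Cd68, a lysosomal glycoprotein, was higher by 1.52, although its starved level of 6.55 was below the array median. The 14 other V-ATPase subunits had a median of -0.17, with 1 past 2-fold in each direction. These were paralogous forms of the same membrane subunit, Atp6v0a1 at 1.43 and Atp6v0a2 at -1.22. Short of 2-fold, the largest differences on the higher side were Atp6ap1 at 0.85 and Atp6ap2 at 0.70. On the lower side they were Atp6v1c1 at -0.93 and Atp6v1f at -0.54.

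The genes of sorting and control showed no shift of this kind with EGF. Of 27 sorting genes, 2 were higher and 2 lower, with a median of -0.07. Igf2r, the large mannose 6-phosphate receptor, was higher by 1.52 and Sort1, sortilin, by 1.05, while Hps5 and Vps33a, which serve lysosome-related organelles, were at -1.28 and -1.14. The 26 genes of nutrient sensing and the MiT/TFE family had a median of -0.19, with Ppargc1a, a coactivator of mitochondrial genes, higher by 2.31. Mitf, of the same family, read 9.65 in MYC-TA, 9.96 in the array labelled Miz1 kd, 9.91 in Hmhi with EGF and 10.81 in starved cells.

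Autophagy genes leaned the other way from the hydrolases. Of 29, 2 were higher with EGF and 4 lower, with a median of -0.39. Map1lc3a, a protein of the autophagosome membrane, was at -1.33, Wipi1, which acts in autophagosome formation, at -1.31 and Atg10 at -1.28, while Tecpr1, which acts in fusion with lysosomes, was higher by 1.62. Of 5 cathepsin inhibitors, Serpinb1a was higher by 3.52 from a starved level below the array median, Cst6 by 2.03, likewise, and Serpinb6a was at -1.52.

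In the array labelled Miz1 kd against Hmhi with EGF, 3 of the 5 inhibitors were at least 2-fold lower, where 2.5% of all genes were. Cst3, the secreted inhibitor cystatin C, read 11.51 and 12.62 in these arrays, against 12.83 in MYC-TA and 12.51 in starved cells. Serpinb1a was at -1.72 and Cst6 at -1.53. The hydrolase list had 2 of 27 lower and a median of -0.28, with Smpdl3b at -1.79 and Siae at -1.06. Ppargc1a was at -1.86. In the other 4 lists, 0 genes were past 2-fold, and the medians were between -0.09 and 0.10.

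In MYC-TA against Hmhi with EGF, the 7 lists held 1 gene past 2-fold on each side, where 1.3% of all genes were higher and 1.65% lower. Smpdl3b was higher by 2.91 and Pld3, a lysosomal nuclease, was at -1.16. The list medians were between -0.19 and 0.01. In MYC-TA against the array labelled Miz1 kd, Smpdl3b was higher by 4.71 from a level of 5.64, below the array median. In this comparison 6.72% of all genes were higher and 4.26% lower. Of the hydrolase list 2 were higher, Ppt2, just past the threshold, being the other, and Pld3 was lower at -1.41. Of the sorting list 0 were higher and 4 lower, Igf2r at -1.39, Hps5 at -1.10, Sort1 at -1.07 and Ap3d1, a subunit of the adaptor AP-3, at -1.01.

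In the same comparison Ppargc1a was higher by 2.49, while Fnip1 and Fnip2, partners of folliculin in nutrient sensing, were at -1.05. Mcoln3 at -1.58 and Tecpr1 at -1.10 were the single genes past 2-fold among the other membrane proteins and the autophagy genes, and 0 V-ATPase subunits were. Of the 5 inhibitors 3 were higher, Cst3 by 1.32, Serpinb1a by 1.29 and Cst6 by 1.22.

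**Figure D5:**
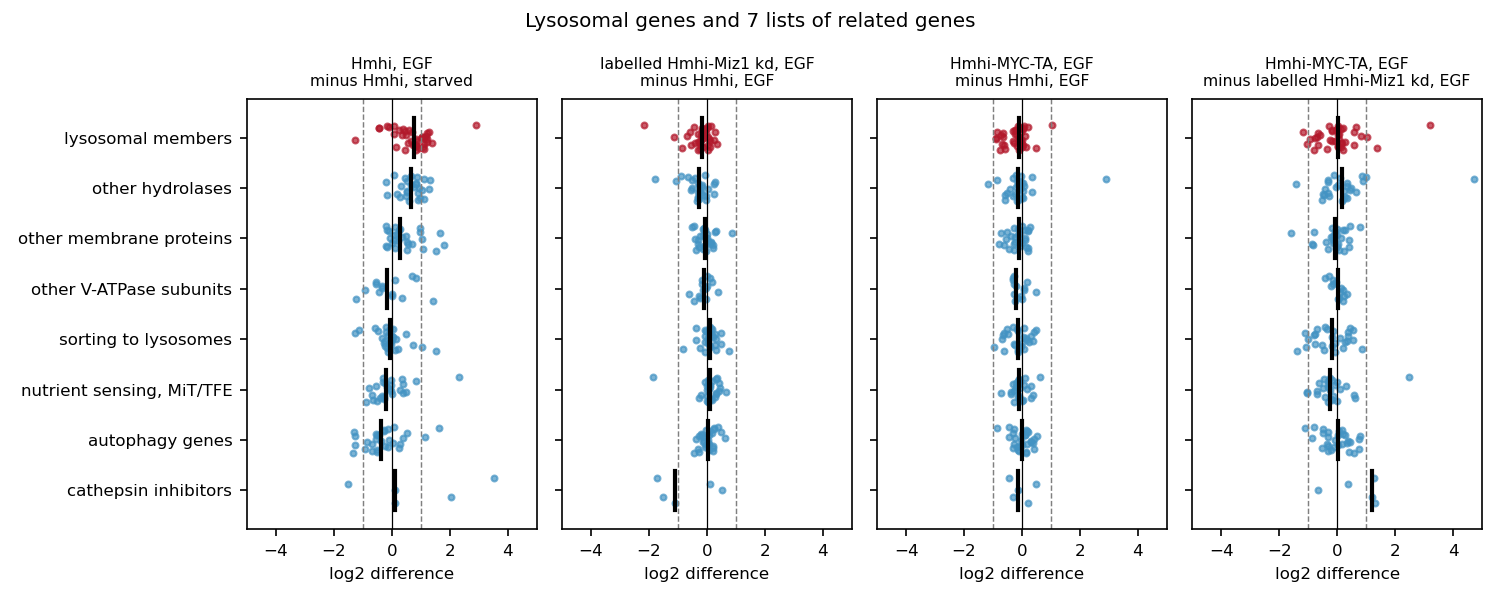
Log2 differences (x axis) of the lysosomal genes (red) and of the genes of 7 related lists (blue) that passed the level filter, with black bars at the medians and 1 panel per comparison. In the first panel the lysosomal genes and the other hydrolases have medians of 0.77 and 0.68, and autophagy genes have -0.39.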

How the data were processed

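Total RNA of 4 cultures was hybridised to Affymetrix mouse arrays after labelling from 100 ng with the IVT-Express kit, per the labels' protocols. The authors deposited 45101 probe set values per array, which lay between 2.937 and 15.121 and were taken here as log2 signals. The log base, summarization and normalization are not given in the sources used here. The sorted columns lay within 0.004 of each other.

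GEO's platform annotation named 1 gene for 34945 non-control probe sets. A gene was its probe set with the highest mean, and a difference was the first-named array minus the other. Members and lists were chosen with earlier results of these data known. Members past 2-fold were named, with Tfeb, Tfe3, the widest and narrowest member per role, and up to 4 genes per related list and comparison. Of the related lists, genes not matched on the array under the listed symbol were not used here. The steps were tested on simulated data with planted changes well past 2-fold, so recovery of differences near that threshold was not tried. Alternatives covered normalization, filter and probe set. The number of arrays limits the precision. Python 3.11.15, pandas 2.3.3, numpy 2.4.6, statsmodels 0.14.6 and matplotlib 3.10.9 were used.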

Additional observations from a re-analysis of the deposited data

How the results depend on the processing

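No paired analysis was possible because the arrays carry no replicate numbers, and leaving out an array would leave its condition empty. Over 8 other settings the median difference of the members stayed between 0.51 and 0.83 for Hmhi with EGF against starved, -0.18 and -0.15 for the array labelled Miz1 kd against Hmhi with EGF, -0.21 and -0.08 for MYC-TA against Hmhi with EGF, and 0.0006 and 0.06 for MYC-TA against the array labelled Miz1 kd. A common median and quantile normalization left every count of members as reported, since the arrays were already normalized.

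With the mean of all probe sets, the members past 2-fold with EGF became 7 of 36 higher (671 of 10483 genes) and 0 lower (467 genes). There were 0 of 36 lower in the array labelled Miz1 kd (220 of 10318 genes) and 0 of 36 higher in MYC-TA against Hmhi with EGF (93 of 10482 genes). In MYC-TA against the array labelled Miz1 kd, 0 of 36 were higher and 4 lower (590 and 380 of 10588 genes). With only plain _at sets, 8 of 30 were higher with EGF (757 of 9948 genes) and 5 of 30 higher in the last comparison (707 of 10088 genes). With the second brightest set, 1 of 33 was lower in the array labelled Miz1 kd (230 of 9477 genes), 0 of 33 higher in MYC-TA against Hmhi with EGF (128 of 9646 genes) and 5 of 33 lower in the last comparison (556 of 9755 genes). Dimmer sets enter under these settings. The 75th percentile filter left 0 lower for the array labelled Miz1 kd, and loess left 0 higher in MYC-TA against Hmhi with EGF; both rest on genes near a limit, Rragd among them. The 1.5-fold threshold, chosen after seeing the data, gave 22 higher with EGF, 5 lower for the array labelled Miz1 kd, 10 lower in MYC-TA against Hmhi with EGF, and 5 higher and 9 lower in the last comparison. Of the members past 2-fold, none changed sign in the settings where it still passed the level filter. The dimmer sets of Ctsf, Sgsh and Rragd are below the array median and were not compared on their own. The mean of all probe sets averaged them in. Sgsh was then at 0.60 with EGF, -0.48 in the array labelled Miz1 kd against Hmhi with EGF, and 0.48 in the last comparison. Ctsf was at 0.62 in the last comparison, and Rragd did not pass the level filter under that setting.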
